A study of Mus musculus with 20 samples.

Results

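The genes described here are 8 acyl-CoA synthetases, Acsbg1, Acsl1, Acsl3, Acsl4, Acsl5, Acsl6, Acss1 and Acss2, taken by gene name from 47729 genes in RNA-seq libraries of the whole adrenal gland of the mouse. The set is labelled long-chain acyl-CoA synthetases, but Acss1 and Acss2 activate acetate and are short-chain enzymes. All 8 were among the 26612 genes that passed a filter on low values (at least 1 normalised read in at least 4 of the 20 libraries). The set was chosen by the normalised read counts of Acsbg1, which were known to differ between Bmal1 KO and control females, together with its relatives by function. The differences between those 2 groups are therefore given as a description, without a test, and the males supply the comparison of genotypes that the choice did not use.

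The study compared adrenals in which the clock gene Bmal1 was inactivated in the cortex with control adrenals, in both sexes. The genotype labels are SCC::Cre_CTRL for controls and SCC::Cre_BMAL1 KO for the other animals, so both genotypes carry a Cre label. The sources used here do not give the promoter behind that label, the exons removed or the strain. There were 5 libraries from control females aged 1.5 to 3.4 months and 5 from Bmal1 KO females aged 2.4 to 3.4 months. There were 6 libraries from control males aged 2.9 to 4.7 months and 4 from Bmal1 KO males aged 2.9 to 3.7 months. Whole glands were sequenced, so cells of the medulla, blood and surrounding fat contribute to every value. Nothing in the labels says that libraries of equal age came from separate animals, so p-values measure the spread between these samples, which may be partly technical.

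Acyl-CoA synthetases join a free fatty acid to coenzyme A, the step that commits it to oxidation, to membrane and storage lipids or to cholesterol esters. The families differ in the chain lengths they accept and in where they sit in the cell. In the adrenal cortex, fatty acids released from cholesterol esters and those taken up with lipoproteins pass through this step, and ACSL4, which prefers arachidonic acid, is known from steroid-producing cells. ACSBG1 belongs to the bubblegum family, which activates long and very long chains.

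The libraries held between 13421985 and 26742820 reads. Arntl, the official symbol of Bmal1, did not read lower with the Bmal1 KO label (833 to 1010 normalised reads in females against 494 to 860 in controls), and a sum over the whole gene checks nothing about the removal of some exons. The clock repressor Cry1 separated the genotypes without overlap, at 1597 to 2137 against 207 to 237 normalised reads in females and at 1140 to 1423 against 122 to 213 in males. All 8 markers of adrenal cortex, such as Star and Cyp11a1, were abundant in every library. Markers of the X-zone, which borders the medulla in young females, summed to between 32182 and 137555 normalised reads in females and to between 503 and 1247 in males. Several libraries stood apart from their group. In the synthetases these were Bmal1 KO female 4 and control male 6, which also had the highest sums of cortex markers (1374920 normalised reads against 1098868 to 1170406 in the other Bmal1 KO females, and 1356954 against 874245 to 1010509 in the other control males). Differences that turned or moved by more than 1.5 times without either library are given both ways. Control female 4 stood apart in adipocyte markers, control female 5 in macrophage markers (7366 against 2853 to 4110), Bmal1 KO male 1 in Schwann cell markers and control male 4 in depth (13421985 reads against 20101724 to 22150331).

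In the GENCODE M21 annotation of GRCm38 the 8 genes are protein-coding and spread over 7 chromosomes. Acsbg1 (ENSMUSG00000032281) lies at chr9:54604877-54661870 on the minus strand, Acsl1 (ENSMUSG00000018796) at chr8:46471037-46536051 on the plus strand and Acsl3 (ENSMUSG00000032883) at chr1:78657825-78707743 on the plus strand. Acsl4 (ENSMUSG00000031278) is X-linked, at chrX:142317993-142390535 on the minus strand. Acsl5 (ENSMUSG00000024981) lies at chr19:55251938-55297720 and Acsl6 (ENSMUSG00000020333) at chr11:54303798-54364756, both on the plus strand. Acss1 (ENSMUSG00000027452, chr2:150618105-150668500, minus strand) and Acss2 (ENSMUSG00000027605, chr2:155517948-155585724, plus strand) share a chromosome without being neighbours. Acsl5 overlaps Zdhhc6 on the other strand, Acss2 overlaps Gss and Ggt7 on the other strand, and Acsl3 overlaps Utp14b on its own strand. The strand setting of the counting is not given in the sources used here, so reads from the overlapping stretches of these pairs cannot be told apart. Acsbg1 and Acsl4 overlap no other gene.

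The promoters of 3 members are shown, because Acsbg1 and Acsl5 are the genes that differed between the sexes in both genotypes and Acsl1 is the other member with a large difference between the female groups. Each is the 250 bases before a transcription start in RefSeq (GRCm38.p6), read 5′ to 3′ on the gene's strand. The Acsbg1 window is chr9:54661886-54662135 (minus strand), that of Acsl5 chr19:55253119-55253368 (plus strand) and that of the first Acsl1 start chr8:46470787-46471036 (plus strand). The Acsl5 window lies inside the span that GENCODE gives the gene, which starts at 55251938. The bases just after the RefSeq start of Acsbg1 were found in no GENCODE transcript of that gene. Capitals mark matches to the GC box GGGCGG.
Acsbg1: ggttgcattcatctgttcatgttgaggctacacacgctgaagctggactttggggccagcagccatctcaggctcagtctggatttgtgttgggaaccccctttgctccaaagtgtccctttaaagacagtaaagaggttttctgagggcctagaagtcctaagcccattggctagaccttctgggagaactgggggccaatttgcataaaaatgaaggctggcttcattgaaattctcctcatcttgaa
Acsl5: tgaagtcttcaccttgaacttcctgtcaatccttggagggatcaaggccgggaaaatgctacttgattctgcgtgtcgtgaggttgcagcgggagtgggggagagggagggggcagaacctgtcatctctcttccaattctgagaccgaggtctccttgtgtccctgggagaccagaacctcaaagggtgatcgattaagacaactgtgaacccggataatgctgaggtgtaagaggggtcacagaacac
Acsl1: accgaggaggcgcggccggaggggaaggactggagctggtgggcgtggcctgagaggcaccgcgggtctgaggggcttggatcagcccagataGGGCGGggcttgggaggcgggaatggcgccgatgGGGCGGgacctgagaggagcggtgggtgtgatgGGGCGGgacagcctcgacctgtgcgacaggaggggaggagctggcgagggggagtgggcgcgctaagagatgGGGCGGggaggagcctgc
The Acsl1 window is 72% G and C and holds 4 GC boxes, while those of Acsbg1 (48.4%) and Acsl5 (52.8%) hold none. All 8 members matched the RefSeq table, with 11 windows between them. Both strands of each window were searched for the E-box CACGTG and the related CACGTT, for the D-box as TTATGTAA and TTACGTAA, for the nuclear receptor half-site AGGTCA, for the steroid receptor palindrome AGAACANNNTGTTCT and for GGGCGG. The E-box, to which CLOCK and BMAL1 bind, and its variant were found in none of the 11 windows, against 6.02% and 3.85% of 32851 windows of the same length. The D-box forms were also found in none (0.819% and 0.113% of all windows), nor was the palindrome (0.00913%). AGGTCA was found in 1 window of Acsl6 (14.0% of all windows), and GGGCGG in windows of Acsl1, Acsl3, Acsl4, Acsl6, Acss1 and Acss2 (32.7% of all windows). The windows of Acsbg1 and Acsl5 held none of these motifs, which says only that these letters are not in these windows.

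Levels are compared between genes as normalised reads per kb of exon, and within a gene as normalised reads. Acsbg1 was the most abundant of the 8 genes in males and Acsl4 in females. In control males Acsbg1 reached 4997 ± 806 normalised reads per kb (SD, n = 6) and Acsl4 2541 ± 773, with ranges that met only through control male 6. In Bmal1 KO males the levels were 4539 ± 384 (n = 4) and 2806 ± 872, and the ranges did not meet. In females Acsl4 led with 2340 ± 375 normalised reads per kb in controls and 2394 ± 371 in Bmal1 KO (n = 5 each). Acsbg1 was second in control females, at 930 ± 268, and in Bmal1 KO females, at 279 ± 175, its range overlapped those of Acsl5 above it and Acss2 below it. Acsl5 came next after these 2 genes in both male groups and in control females, at 331 to 453 normalised reads per kb. Acsl3, Acss2 and Acsl1 followed, with most neighbouring ranges overlapping. Acss1 and Acsl6 were lowest in every group, between 14.7 and 81.7 normalised reads per kb. With the longest transcript as the length, Acsl4 and Acsbg1 kept their first places in females and males, but Acss2 stood above Acsl3 in all 4 groups, where by exon length it did so only in Bmal1 KO females, so the order in the middle depends on the length used.

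**Figure D1:**
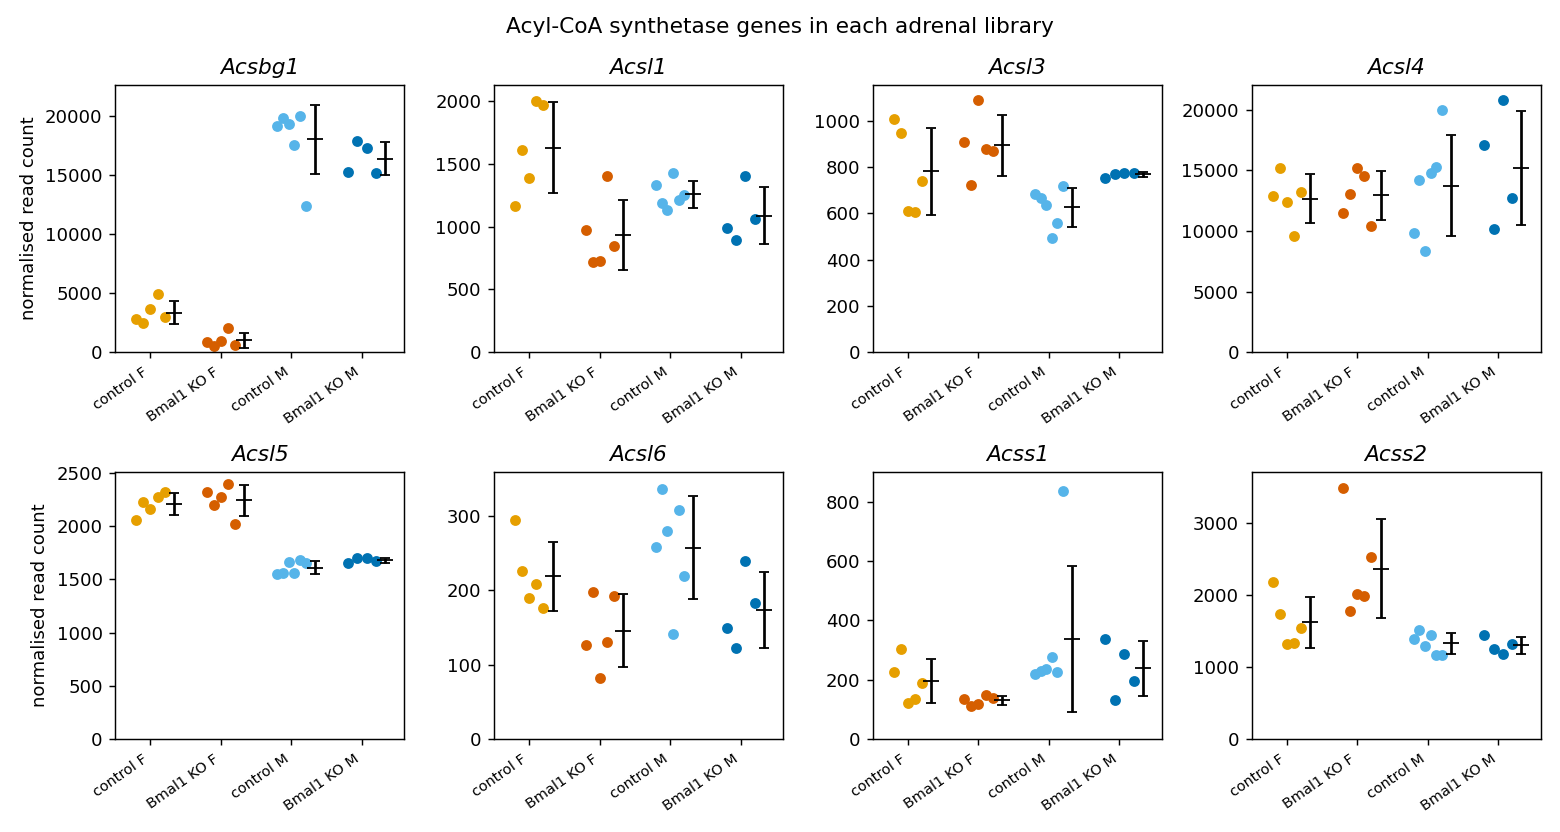
Normalised read counts of the 8 genes in each of the 20 libraries, 1 panel per gene with its axis starting at 0. Points are libraries in the order of their numbers, and each dash with its bar gives mean and SD, for control females (F), Bmal1 KO females, control males (M) and Bmal1 KO males. Acsbg1 lies between 12366 and 20013 in control males and between 2466 and 4903 in control females, and Acsl5 separates the sexes by a smaller step.

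Acsbg1 separated the sexes without overlap in both genotypes. Its normalised read count was 2781, 2466, 3622, 4903 and 2980 in control females 1 to 5. In the 6 control males the lowest was 12366, the median 19195 and the highest 20013. Every control male thus lay above every control female. The means were 3351 ± 965 (SD, n = 5) and 18010 ± 2903 (n = 6), a log2 difference of -2.45 ± 0.25 (SE) or 5.47-fold lower in females (limma adjusted p = 3.71e-07). In Bmal1 KO males the values were 15220, 17821, 17260 and 15138, and in Bmal1 KO females 897, 504, 962, 2082 and 590. The difference here was -4.21 ± 0.28 or 18.5-fold (limma adjusted p = 8.01e-10). Of 26612 genes, 122 were lower in females than in males by more than Acsbg1 in controls and 13 in Bmal1 KO. These 2 comparisons share the control females and the Bmal1 KO females with the one that singled out Acsbg1. Their p-values and ranks are not independent of that choice. The larger difference in Bmal1 KO contains the female genotype difference it was chosen for and is a description. X-zone markers (37664 to 137555 in control females against 599 to 1247 in control males) and ages differed between the sexes too, and a change in the cells present and a change in RNA per cell cannot be told apart in whole glands. With age as a covariate the differences were -2.52 and -4.23, and both passed the test. Without control male 6 the difference in controls was -2.56, and without Bmal1 KO female 4 that in Bmal1 KO was -4.52.

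Between the genotypes, Acsbg1 was lower in Bmal1 KO females than in control females, which is the difference it was chosen for. All 5 Bmal1 KO females, at 504 to 2082 normalised reads, lay below the lowest control female, at 2466. The means were 1007 ± 632 and 3351 ± 965 (SD, n = 5 each), a log2 difference of -1.88 ± 0.26 (SE). The library nearest the controls was Bmal1 KO female 4, and without it the difference was -2.19. In that library the 4 X-zone markers summed to 71409 normalised reads, inside the 32182 to 101825 of its group, with Cyp2f2 the highest of the group (2451 against 590 to 990) and Pik3c2g the lowest (2256 against 2644 to 16260). Its Dbp, a clock output gene, was also the highest (554 against 320 to 430). Between the female genotypes the X-zone markers moved in different directions. Cyp2f2 was lower in Bmal1 KO by -2.82 ± 0.37 (SE) on the log2 scale and Thrb higher by 0.61 ± 0.11, both at a limma adjusted p under 0.05, while Akr1c18 differed by -0.27 ± 0.76 and Pik3c2g by 0.62 ± 0.97. The part of the X-zone, or of what sets Bmal1 KO female 4 apart, in the Acsbg1 values was not tested.

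In males the genotypes overlapped, with Bmal1 KO males at 15138 to 17821 inside the control range of 12366 to 20013. The means were 16360 ± 1383 (n = 4) and 18010 ± 2903 (n = 6). The log2 difference was -0.12 ± 0.27 (SE), with a 95% interval from -0.69 to 0.44 (limma adjusted p = 0.936). A modest rise or fall lies within that interval. The -1.88 of females lies outside it, but that is the value by which Acsbg1 was chosen and may be overstated. Without control male 6, the lowest control, the difference was -0.23. The female difference exceeded the male one by -1.76 ± 0.38 on the log2 scale, and this comparison contains the female difference by which Acsbg1 was chosen, so it is a description. It was -2.07 without Bmal1 KO female 4.

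**Figure D2:**
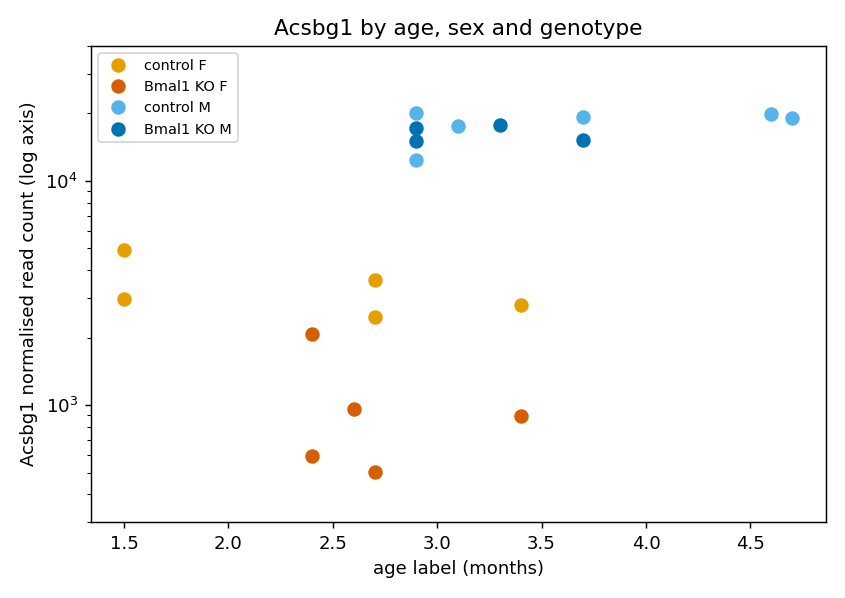
Normalised read count of Acsbg1 on a log axis against the age label in months, 1 point per library, coloured by sex and genotype. Females lie below males at the ages both share, and the control females aged 1.5 months (4903 and 2980) overlap in range with the older ones (2466 to 3622).

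Age did not order Acsbg1 within the groups in any plain way. The 2 control females aged 1.5 months had 4903 and 2980 normalised reads, and the oldest, at 3.4 months, had 2781. The control males aged 2.9 months held both the highest and the lowest value of their group, 20013 and 12366. The 2 Bmal1 KO females aged 2.4 months had 2082 and 590. Leaving out the control females aged 1.5 months gave a log2 difference of -1.72 between the female genotypes and of -2.61 between the sexes in controls.

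The genes whose profile over the 20 libraries was most like that of Acsbg1 were Tmem52, Kcnk1, Cxcr4, Prr15 and Nup62cl. Likeness was the mean absolute difference per library between log2 profiles centred on their own mean, among 12137 genes with a mean of at least 50 normalised reads. It was 0.37 for Tmem52, a membrane protein gene, 0.51 for the potassium channel gene Kcnk1, 0.55 for the chemokine receptor Cxcr4, 0.59 for Prr15 and 0.61 for Nup62cl. Cxcr4 had a mean of 879 ± 259 normalised reads over control females and 472 ± 105 over Bmal1 KO females (SD, n = 5 each). The male means were 6480 ± 886 for controls (n = 6) and 3777 ± 1072 for Bmal1 KO (n = 4). Kcnk1 ran from 25.9 to 79.7 in Bmal1 KO females and from 90.7 to 239.8 in control females, and in males from 528 to 916 and from 869 to 1878 in the same order. Tmem52 had male means of 833 in controls and 585 in Bmal1 KO, Prr15 of 347 and 183, and Nup62cl of 375 and 518. Acsbg1, at 18010 and 16360, differed less in proportion between the male genotypes than these 5 genes. All 5 genes had higher means in males than in females. They were picked for likeness over all libraries, so that their sex difference is no separate result. None of the other 7 synthetases was close, with values from 1.43 for Acss1 to 1.95 for Acss2.

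Counted over the 8 members, 2 differed between the sexes in controls and 3 in Bmal1 KO, and 0 between the genotypes in males. The threshold for a call was 0.05 for p after Benjamini-Hochberg adjustment over all genes tested. In controls Acsl5 was higher in females and Acsbg1 lower, 2 of 8 against 26.4% of all genes. The same 2 genes separated the sexes without overlap, where 13.9% of all genes did. In Bmal1 KO the count was 3 of 8, with Acsl5 and Acss2 higher in females and Acsbg1 lower, against 22.8% of all genes. The 3 also did not overlap there, as for 20.7% of all genes. Acsbg1 is in all these counts, which use the female values it was chosen by. Nothing is read from these shares. The median log2 difference, female minus male, was 0.10 over the members and -0.05 over all genes in controls, and -0.22 against -0.07 in Bmal1 KO.

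Between male genotypes the count was 0 of 8 by limma, against 1.33% of all genes. edgeR and DESeq2 on the recovered reads also called 0, and 2 of 8 members, Acsl3 and Acsl6, had an unadjusted p under 0.05, as did 10.9% of all genes. Acsl3 was the 1 member whose male genotypes did not overlap, as for 3.07% of all genes. The median log2 difference in males was -0.08 over the members and 0.00034 over all genes. In females Acsbg1 and Acsl1 were lower at the same threshold and 0 members were higher (1.75% of all genes were called, 1.12% higher and 0.635% lower), a count that the choice of the set fixes in part and from which nothing is read. edgeR gave the same 2 genes, and DESeq2 gave 3, with Acss2 higher. Groups of females did not overlap for Acsbg1 alone of the 8, as for 3.25% of all genes. The difference between the female and the male effect was called for 0 of the 7 members other than Acsbg1 by limma, edgeR and DESeq2 (0.0301% of all genes were called by limma). At an unadjusted p under 0.05 there were 2 of these 7 members, Acsl1 and Acss2, and 6.44% of all genes.

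**Figure D3:**
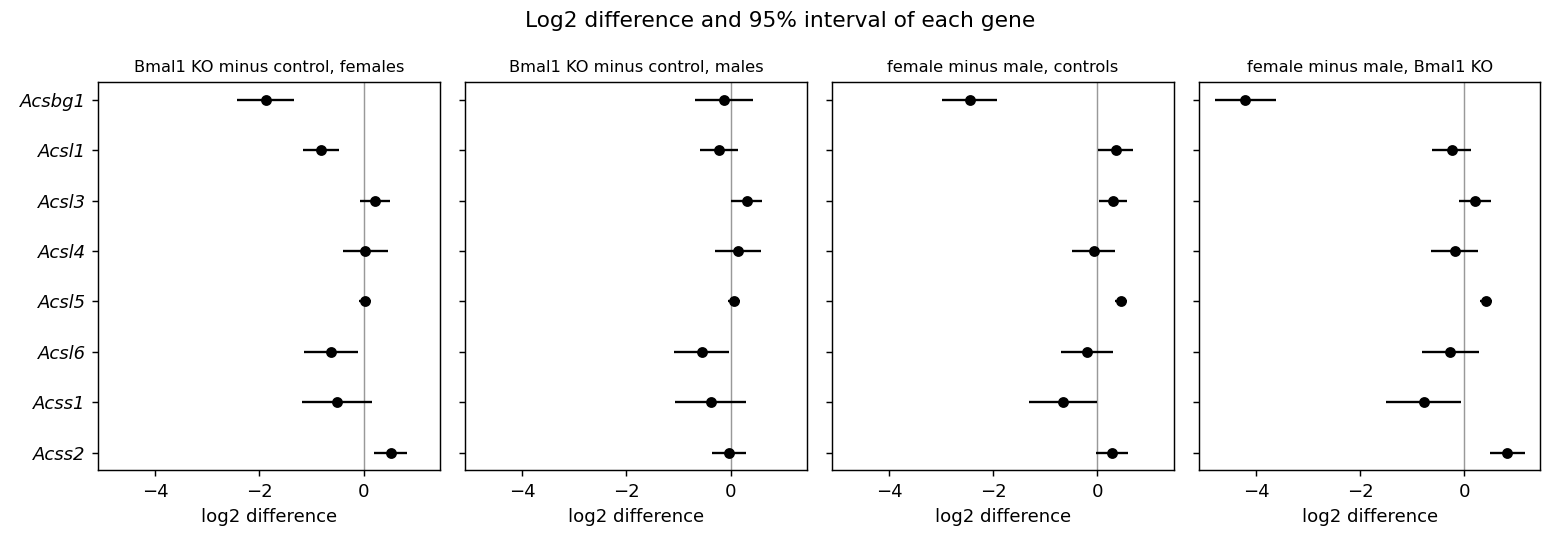
Log2 difference of each gene (point) with its 95% interval (bar) in 4 comparisons, from left to right the genotype difference (Bmal1 KO minus control) of females and of males and the sex difference (female minus male) of controls and of Bmal1 KO. Acsbg1 lies at -1.88, -0.12, -2.45 and -4.21, and Acsl5 at 0.45 and 0.41 in the comparisons of sexes.

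Acsl4, the arachidonate-preferring enzyme, was abundant in all groups, and the spread within groups (SD 2008 to 4715) was as large as the gaps between their means (12648 to 15168). Control females read 12889, 15209, 12389, 9577 and 13176 normalised reads, and Bmal1 KO females 11465, 13046, 15192, 14559 and 10441. Control males ranged from 8338 to 20010 with a median of 14486, and Bmal1 KO males read 17075, 10133, 20782 and 12683. The 4 groups overlapped throughout. The log2 difference between male genotypes was 0.15 ± 0.21 (SE), with a 95% interval from -0.29 to 0.59 (limma adjusted p = 0.881). Between the sexes it was -0.08 ± 0.20 in controls (adjusted p = 0.824) and -0.19 ± 0.22 in Bmal1 KO (adjusted p = 0.588). Acsl4 is X-linked, and its intervals leave room for sex differences of up to -0.49 or 0.34 in controls. Between the female genotypes the difference was 0.03 ± 0.21. Without control male 6 the male difference was 0.27 and the sex difference in controls 0.045, and without Bmal1 KO female 4 the female difference was -0.012.

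Acsl5, an enzyme of the endoplasmic reticulum and mitochondria best known from the intestine, had the tightest values of the set. Control females read 2053, 2223, 2158, 2276 and 2316 normalised reads, and Bmal1 KO females 2322, 2198, 2273, 2396 and 2019. Control males ranged from 1548 to 1683 with a median of 1606, and Bmal1 KO males read 1650, 1698, 1702 and 1671. Every female library lay above every male library. Females were 1.37-fold higher in controls (log2 difference 0.45 ± 0.05, limma adjusted p = 1.56e-06) and 1.33-fold higher in Bmal1 KO (0.41 ± 0.06, adjusted p = 2.22e-05). The genotypes differed by 0.06 ± 0.06 in males, with a 95% interval from -0.05 to 0.18 (adjusted p = 0.768), and by 0.02 ± 0.05 in females (-0.0022 without Bmal1 KO female 4). Reads from Zdhhc6, at a mean of 1206 normalised reads, may add to these values where the genes overlap.

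Acsl1, the main form in fat, liver and muscle, was lower in Bmal1 KO females than in control females. Control females read 1167, 1613, 1388, 2000 and 1971 normalised reads and Bmal1 KO females 974.5, 719, 726, 1402 and 845. The groups overlapped through Bmal1 KO female 4 and the 2 lower controls. The log2 difference was -0.82 ± 0.17 (SE), with means of 1628 ± 363 and 933 ± 282 (SD, n = 5 each). The 2 control females with the highest Acsl1 were those aged 1.5 months, and without them the difference was -0.61 and no longer at the threshold, nor was it when the 2 female groups were fitted alone. In males, controls ranged from 1129 to 1431 with a median of 1232, and Bmal1 KO males read 989, 891, 1408 and 1064. The male difference was -0.22 ± 0.17, with a 95% interval from -0.59 to 0.14 (limma adjusted p = 0.712). The female difference exceeded the male one by -0.59 ± 0.24, which did not pass the test (adjusted p = 0.694). Females and males differed by 0.35 ± 0.16 in controls (adjusted p = 0.126) and by -0.25 ± 0.18 in Bmal1 KO (adjusted p = 0.358). Without control female 1 the difference in controls was 0.46 (adjusted p = 0.0413), and without the 3 libraries highest in Ucp1, given next, that in Bmal1 KO was -0.40 (adjusted p = 0.0447), as it was without Bmal1 KO female 4 alone (adjusted p = 0.0832).

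Fat markers moved with Acsl1 in some female libraries. The 8 adipocyte markers summed to between 1913 and 10984 normalised reads in control females and between 2683 and 6543 in Bmal1 KO females. In males they summed to between 1965 and 4051 in controls and between 2863 and 4347 in Bmal1 KO. Plin1, which coats lipid droplets and was at 1841 or more in every library, made up much of the lower sums, and Lep was at 0 in 3 libraries. Control female 4 alone held 10984, against 1913 to 4253 in the other control females. Of the 8 markers, 0 were called between the genotypes in either sex. Their median log2 difference was -0.93 in females, where Plin1 went the other way (0.34 ± 0.12), and 0.53 in males. Without control female 4 the female median was 0.095. Ucp1, which defines brown fat, was highest in control females 4 and 5 and in Bmal1 KO female 4, at 610, 158 and 383 normalised reads. These 3 libraries also had the highest Acsl1 of their groups. Without them, a choice made after seeing the data, the female difference of Acsl1 was -0.77 and that of Acsbg1 -2.03, and the marker median was 0.21. Control females 4 and 5 are also the 2 aged 1.5 months, so their fat and their age cannot be told apart. The part of fat in the Acsl1 values of the libraries that hold it was not tested.

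**Figure D4:**
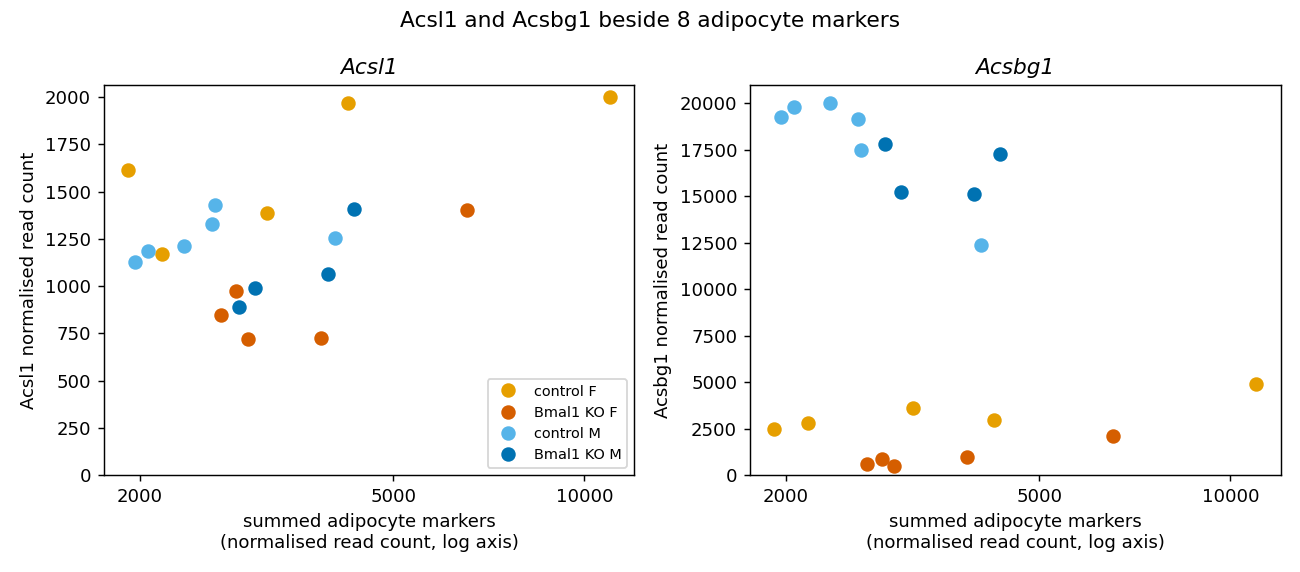
Normalised read counts of Acsl1 (left) and Acsbg1 (right) against the summed normalised reads of 8 adipocyte markers on a log axis, 1 point per library, coloured by sex and genotype. Bmal1 KO female 4, with a sum of 6543, has 1402 normalised reads of Acsl1 and 2082 of Acsbg1, the highest of its group in both.

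Acsl3, which sits on nascent lipid droplets, showed a small difference between male genotypes that did not pass the test. Control males ranged from 492 to 719 normalised reads with a median of 651, and the 4 Bmal1 KO males read 753, 772, 777 and 775. All Bmal1 KO males lay above all controls. The log2 difference was 0.31 ± 0.14 (SE), with a 95% interval from 0.02 to 0.60 (limma adjusted p = 0.428 over all genes). In females controls read 1008, 948, 609, 605 and 741 and Bmal1 KO 909, 722, 1092, 878 and 871, a difference of 0.21 ± 0.14 with overlap. The sexes differed by 0.30 ± 0.13 in controls (adjusted p = 0.103), which passed the test with age as a covariate (0.49, adjusted p = 0.0401) and without control female 3 or 4 (0.38 each), and by 0.21 ± 0.15 in Bmal1 KO (adjusted p = 0.345).

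Acsl6, the form known from brain, was low everywhere. Control females read 294, 226, 190, 208 and 176 normalised reads and Bmal1 KO females 127, 198, 82, 130 and 192. Control males ranged from 142 to 337 with a median of 269, and Bmal1 KO males read 149, 122, 240 and 183. Genotype means were lower in Bmal1 KO in both sexes, with overlap. The male difference was -0.56 ± 0.25, with a 95% interval from -1.08 to -0.03 (limma adjusted p = 0.423), and the female one -0.63 ± 0.25. Between the sexes the differences were -0.20 ± 0.24 in controls (adjusted p = 0.582) and -0.28 ± 0.26 in Bmal1 KO (adjusted p = 0.495).

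Of the short-chain enzymes, Acss2, which makes acetyl-CoA from acetate in cytosol and nucleus and is a target of the sterol-regulated factor SREBP, was higher in females than in males of the Bmal1 KO genotype. Bmal1 KO females read 3487, 1783, 2012, 1990 and 2532 normalised reads and Bmal1 KO males 1442, 1250, 1176 and 1324. All females lay above all males, with a log2 difference of 0.82 ± 0.16 or 1.77-fold (limma adjusted p = 0.000846). In controls females read 2182, 1734, 1321, 1336 and 1536 and males from 1165 to 1512 with a median of 1338. The difference there was 0.27 ± 0.15 with overlap (adjusted p = 0.193), and 0.57 with age as a covariate (adjusted p = 0.0178). Between the genotypes the male difference was -0.03 ± 0.16, with a 95% interval from -0.35 to 0.30 (adjusted p = 0.979), and -0.064 without control male 6. The female difference was 0.52 ± 0.15, and 0.42 without the control females aged 1.5 months. Over single libraries left out it ran from 0.37 to 0.64, the latter without control female 1. The female effect exceeded the male one by 0.55 ± 0.22 (adjusted p = 0.686). Acss2 shares its locus with Gss, at a mean of 1421 normalised reads, on the other strand.

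Acss1, the mitochondrial acetate-activating enzyme, passed the test in none of the 5 comparisons. Control females read 225, 304, 122, 135 and 187 normalised reads and Bmal1 KO females 134, 111, 119, 148 and 138. Control males ranged from 220 to 838 with a median of 232, and Bmal1 KO males read 338, 133, 286 and 195. The value of 838 came from control male 6, and the other 5 lay between 220 and 277. Females and males differed by -0.66 ± 0.31 in controls (limma adjusted p = 0.127) and by -0.36 without control male 6. In Bmal1 KO the difference was -0.79 ± 0.34 (adjusted p = 0.108). When control male 6 left the shared estimate of spread, the same difference had adjusted p = 0.0251, and without Bmal1 KO male 2 it was -1.04 (adjusted p = 0.0465). The genotypes differed by -0.38 ± 0.33 in males, with a 95% interval from -1.07 to 0.31 (adjusted p = 0.758), and by -0.51 ± 0.32 in females. The male difference was -0.078 without control male 6 and -0.13 without Bmal1 KO male 2.

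**Figure D5:**
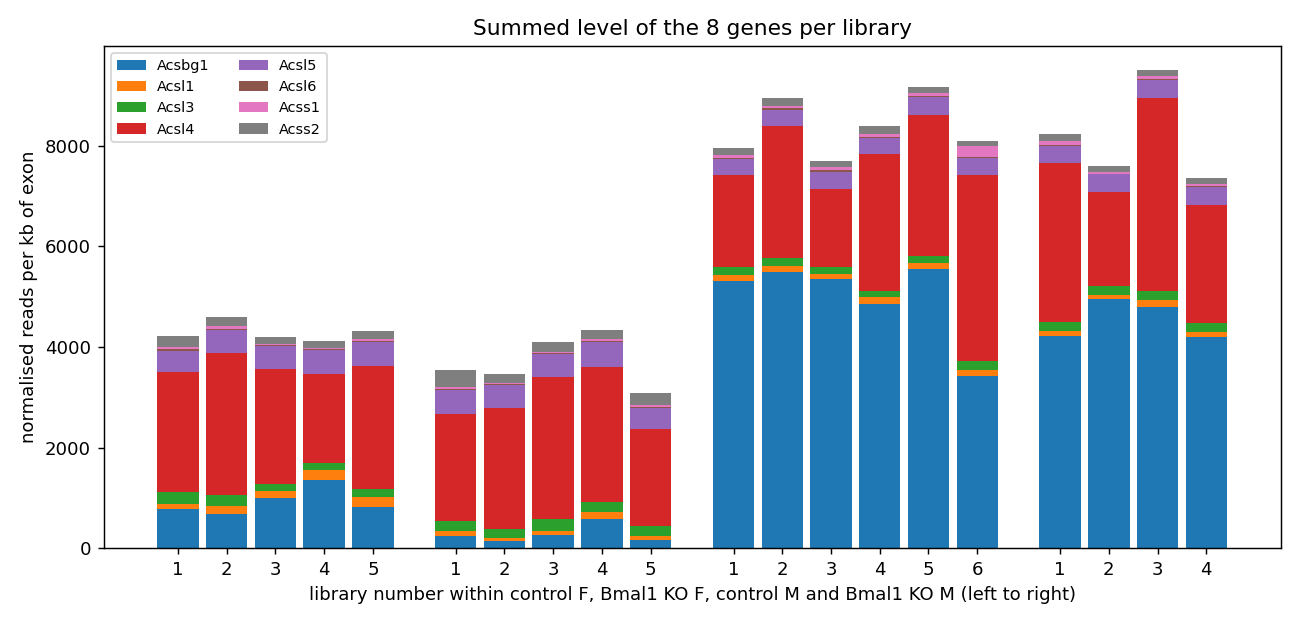
Normalised reads per kb of exon of the 8 genes stacked for each library, by group from left to right and by library number within a group. The total is 8371 on average in control males and 4287 in control females, and Acsbg1 is the largest share of every male bar but that of control male 6.

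Summed per kb of exon, the 8 genes came to 4287 ± 186 normalised reads over control females and 3707 ± 506 over Bmal1 KO females (SD, n = 5 each). The male sums were 8371 ± 578 for controls (n = 6) and 8174 ± 959 for Bmal1 KO (n = 4). Acsbg1 supplied 59.8% ± 9.52 of the sum in control males and 55.95% ± 6.75 in Bmal1 KO males. In females it supplied 21.9% ± 7.04 in controls and 7.24% ± 3.58 in Bmal1 KO. Acsl4 took 54.4% and 64.5% in these female groups, and 30.2% and 33.8% in males. The ACSL family together made up 73.3% of the sum in control females against 37.7% in control males. A share also depends on the level of Acsbg1 in the sum. Acsl4 itself was at 2340 normalised reads per kb in control females and at 2541 in control males. These shares are of RNA and say nothing of enzyme activity.

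Around these genes, 145 genes of fatty acid activation and use were listed in 8 groups, and 139 of them were tested. Between the sexes, 36 were higher and 27 lower in control females than in control males, 45.3% of those tested. Of all genes, 26.4% were called in that comparison, 13.5% higher and 12.9% lower. These shares of all genes are the background for every list that follows and are not repeated there. They include many genes with low values. With a filter of 10 normalised reads in 4 libraries, 6901 of 18278 genes were called in controls. In Bmal1 KO 39 listed genes were higher and 21 lower (43.2%, against 22.8% of all genes). There the same filter gave 6153 of 18278 genes, so nothing is read from the excess of the lists. Among 15 tested relatives of the members, 4 were higher and 6 lower in control females. Slc27a6, a fatty acid transport protein, was higher by 4.11 ± 0.44 on the log2 scale (limma adjusted p = 5.27e-07), at 77.4 ± 39.9 normalised reads against 3.5 ± 1.8. The medium-chain synthetase genes Acsm3 (1.77 ± 0.36) and Acsm2 (-1.77 ± 0.55) went opposite ways. Acsbg2, the other bubblegum gene, was lower in females by -1.61 ± 0.53, but at 3.4 to 11.6 normalised reads it was barely expressed.

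Among genes that use acyl-CoA to build glycerolipids or that break these down, of 25 tested, 8 were higher and 6 lower in control females. Dgat2, which makes triglyceride, was higher by 2.87 ± 0.34, and Gpam, the first acyltransferase of the pathway in mitochondria, by 2.48 ± 0.17. Agpat2 was higher by 1.58 ± 0.13 and Agpat4 lower by -1.44 ± 0.09, so that paralogs of 1 step differed in opposite directions. Of 12 genes of fatty acid synthesis, 4 were higher and 2 lower. The thioesterase Olah was higher by 3.02 ± 0.41, at 13.6 ± 6.5 normalised reads against 0.8 ± 0.7. The cytosolic acetyl-CoA carboxylase Acaca was higher by 1.35 ± 0.14 and its mitochondrial counterpart Acacb lower by -1.43 ± 0.10.

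Of 20 elongation and desaturation genes, 8 were higher in control females, 1 was lower and 11 were not called. Hacd1, which removes water during elongation, was higher by 1.27 ± 0.11 and the desaturase Fads2 by 0.76 ± 0.21. Of 12 tested thioesterases, which reverse the synthetase step, 2 were higher and 3 lower, with Acot12 at -3.08 ± 0.56 and Acot1 at -2.08 ± 0.40. In mitochondrial beta-oxidation 3 of 23 were higher and 4 lower, and in the peroxisomal pathway 3 of 16 and 2. Of 16 tested binding proteins and PPAR genes, 4 were higher and 3 lower, with the fatty acid transporter Cd36 at 1.82 ± 0.22 and the binding protein Fabp3 at -1.9997 ± 0.46.

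Between male genotypes 3 of the 139 genes were called, all lower in Bmal1 KO (2.16%, against 1.33% of all genes). With the filter of 10 normalised reads in 4 libraries, 395 of 18278 genes were called, so the list is not set apart. Lpin1, which makes diacylglycerol, fell from 1038 ± 170 (SD, n = 6) to 705 ± 37.6 normalised reads (n = 4), a log2 difference of -0.54 ± 0.11 (limma adjusted p = 0.0162). Mgll, the monoacylglycerol lipase, changed by -0.62 ± 0.15 (adjusted p = 0.0491), and the medium-chain synthetase gene Acsm5 by -1.23 ± 0.28 (adjusted p = 0.0296). Between female genotypes 5 genes were at the threshold (3.6%, against 1.75% of all genes, and 514 of 18278 genes with that filter). Etfa, the electron transfer flavoprotein subunit, was higher in Bmal1 KO by 0.72 ± 0.10, Olah by 2.07 ± 0.43 and the receptor Ppard by 0.42 ± 0.10. Acsf2, a synthetase of medium chains, was lower by -0.54 ± 0.09 and Slc27a3 by -0.49 ± 0.12. The female count was 11 with DESeq2 and 2 without the control females aged 1.5 months, and the male count 9 with DESeq2 and 1 with age as a covariate. The difference between the female and the male effect was called for 0 of the 139 genes by limma, edgeR and DESeq2, with 13 (9.35%) at an unadjusted p under 0.05 against 6.44% of all genes.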

How the data were processed

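A Direct-zol kit was used for RNA and a TruSeq RNA kit for libraries, from whole adrenals, per the labels' protocols. Per the submitters' processing notes, featureCounts, Salmon, DESeq2, FastQC and MultiQC were used with builds GRCm38 and mm10, without versions or roles. The sources used here do not give the aligner or the strand setting. The deposited signal is 1 value per gene and library. Every positive value was a whole multiple of 1 step per library (100% whole within 0.001 of a read), and each step times the library's DESeq2 size factor was 1, so the deposited signal is a read count divided by a size factor and is called normalised read count here.

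log2(value + 1) was modelled with limma-trend (limma 3.58.1, R 4.3.3) for the 26612 genes that reached 1 normalised read in 4 or more libraries. All 20 libraries entered 1 fit with 4 group means, and p-values were Benjamini-Hochberg adjusted over all genes tested. Because of the added 1, fold changes of genes with low counts are understated. edgeR 4.0.16 and DESeq2 1.42.0 on the recovered reads were alternatives and called 401 and 726 genes between male genotypes and 518 and 913 between female genotypes, where limma called 354 and 467. Other alternatives changed the pseudocount, filter, scaling, samples, age term and replicate block. The fit was tested on simulated data. Reads per kb use the union of a gene's exons in GENCODE M21. The floor of detection is 3 reads, which covers counting error only, and all 8 genes were far above it. Over 41 pairs of libraries within groups, none agreed within sampling noise (smallest chi-square per degree of freedom 13.2). The members, the gene lists and the marker lists were chosen with earlier results of these data known. Named pathway genes are those called in a comparison, at most 4 per list by size of difference, and genes with a role in the text.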

Additional observations from a re-analysis of the deposited data

Results flagged for a closer look

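In a group of 4 to 10 libraries, a library was noted where its gap to the nearest other library was a larger part of the group's range than chance gives in about 1 of 20 groups. Over 32 combinations of gene and group, 3 values were noted, from Bmal1 KO female 4 and control male 6. Acsbg1 in Bmal1 KO female 4 was 2082 normalised reads against 504 to 962 in the other 4, with a ratio of 0.7101 at a limit of 0.71. Acsbg1 in control male 6 was 12366 against 17490 to 20013 in the other 5 (ratio 0.67, limit 0.625). Acss1 in the same library was 838 against 220 to 277 (ratio 0.908). Control male 6 also had the highest Acsl4 of the control males (20010 normalised reads) and the highest Arntl (1092 against 365 to 664 in the others). Its Cry1 was the highest (213 against 122 to 169). Its Dbp (1316 against 1707 to 2435) and the clock gene Nr1d1 (1091 against 1644 to 2381) were the lowest. Its adipocyte markers summed to 4051 against 1965 to 2621. The part of these in its synthetase values was not tested.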

How the results depend on the processing

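The sex differences of Acsbg1 (-2.61 to -2.35 on the log2 scale in controls, -4.52 to -4.01 in Bmal1 KO), of Acsl5 in both genotypes and of Acss2 in Bmal1 KO kept direction and call in 33 of 33 alternatives. For Acsbg1 these alternatives use female libraries by which it was chosen, so its calls are not independent of that choice. Acsbg1 is also in the counts by sex that follow. The number of members called by sex in controls was 4 with age as a covariate, which added Acsl3 and Acss2, and ran from 2 to 3 when single libraries were left out. In Bmal1 KO it ran from 3 to 4. Between male genotypes it was 0 throughout, and the Acsbg1 difference ran from -0.28 to -0.09. Between female genotypes it was 1 in a fit of only the 2 groups and 1 without the control females aged 1.5 months, 3 with DESeq2, and 2 to 3 when single libraries were left out. For the difference between the female and the male effect it was 0 in 32 of 32 alternatives over the 7 members other than Acsbg1. With Acsbg1 counted, whose value contains the difference it was chosen for and tests nothing, it was 1 with DESeq2 and 1 without the 3 libraries highest in Ucp1, and 0 to 1 over single libraries. The pathway count in females was 11 with DESeq2 and 2 without the control females aged 1.5 months, and in males 5 with edgeR, 9 with DESeq2 and 1 with age as a covariate. The cause was not tested.

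Reversals touched only small differences that were not called. Without the control females aged 1.5 months, or without the 3 libraries highest in Ucp1, Acsl4 was at -0.069 and -0.12 between female genotypes and at 0.028 between the sexes in controls in both settings. In the same first setting the Acsl5 difference of effects was 9.0e-05. Acss2 in males was 0.076 with age as a covariate, and the Acsl6 difference of effects 0.0053 with limma-voom. Over single libraries left out, Acsl4 ran from -0.21 to 0.045 by sex in controls, from -0.062 to 0.11 in females and from -0.021 to 0.32 in males, Acsl5 from -0.0030 to 0.059 in females and Acss2 from -0.080 to 0.017 in males. The differences of effects ran from -0.18 to 0.0054 for Acsl3, -0.29 to 0.055 for Acsl4, -0.22 to 0.12 for Acsl6 and -0.43 to 0.073 for Acss1.

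With the replicate number as a block, limma called 442 genes between female genotypes and 350 between male genotypes, and 4 members by sex in Bmal1 KO, where Acss1 was added. With the block Acsl4 by sex in controls was 0.045 and Acss1 between male genotypes -0.075. Libraries sharing a number correlated by 0.014 to 0.233 in females and -0.103 to -0.019 in males. Of these pairs, 3 of 5 in females and 0 of 4 in males correlated best with their own number. Pairing by number thus had no sign in males and was left undecided in females. With 4 to 6 libraries a group, intervals of Acsl6 and Acss1, the lowest genes, were the widest beside that of Acsbg1.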
